A study of Mus musculus with 9 samples.

Results

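The 10 genes that build, edit and carry heparan sulfate were compared between 3 layers at the back of the mouse eye, the choroid (CH), the retinal pigment epithelium (RPE) and the photoreceptors (PR). They were chosen by name, as the probes labelled Sulf1, Sulf2, Ext1, Ext2, Ndst1, Hs2st1, Hs6st1, Hs6st2, Sdc2 or Gpc4, which gave 10 of the 31829 gene names and 13 of the 39429 probes on the array. Each layer was cut by laser from eyes of female mice, labelled as strain C57BL/6 (substrain C57BL/6JOlaHsd by the methods) and as 6 months old within 2 weeks, although the methods of the study state a younger age. No treatment or genetic change was given to any group. Each sample came from a whole eye, and there were 3 arrays for CH, 3 for RPE and 3 for PR. Every array held amplified tissue RNA in Cy5 (red) against a common reference of choroid and RPE RNA in Cy3 (green). The log2 ratio of tissue over reference was normalized within each array. A value of 0 thus means the ratio typical of probes of similar intensity on that array, not equal signal in both dyes. The reference contained no photoreceptor layer by its label, and the ratio says nothing about which of several genes is more abundant.

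Heparan sulfate is a long sugar chain fixed to core proteins on the cell surface and in basement membranes. Ext1 and Ext2 together extend the chain, Ndst enzymes replace acetyl groups by sulfate on the amino position, and Hs2st1 and the Hs6st enzymes add sulfate at the 2-O and 6-O positions. After secretion of the chain, the sulfatases Sulf1 and Sulf2 remove 6-O-sulfate outside the cell, which changes how the chain binds growth factors such as FGF, VEGF and Wnt proteins. In the outer retina, heparan sulfate is a part of Bruch's membrane, the sheet between RPE and choriocapillaris, where it also binds the complement regulator factor H.

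The layers carried their known markers. The mean log2 ratio of 10 RPE markers lay from 1.72 to 2.11 on the RPE arrays, from 0.12 to 1.05 on the CH arrays and from -2.87 to -2.81 on the PR arrays. Of these 10, 9 were called higher in RPE than in PR and 7 higher in RPE than in CH. Stra6 and Rgr were not called against CH. Best1 was called in neither comparison, with means of -0.05 in CH, -0.06 in RPE and 0.31 in PR. The 10 rod markers were all called lower in RPE and in CH than in PR, and the 7 fibroblast markers were all called lower in RPE than in CH. CH replicate 3 had the highest RPE marker level of the CH arrays, at 1.05 against 0.12 and 0.36. Between 62.1% and 91.7% of probes were well above background in Cy5, with RPE replicate 2 at the top, and the number of arrays limits the precision of every value. In tissue layers, fewer cells of a type and less RNA per cell cannot be told apart.

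Upstream sequence was at hand for 6 of the 10 members in a RefSeq table of build GRCm38.p6. Sulf1, Ext1, Sdc2 and Ndst1 are named only. Shown here are the 250 bases before the starts of Sulf2 and Gpc4, the members highest in CH and lowest in PR among these 6, and before the listed start of Hs6st2 with the lower coordinate, the member lowest in RPE. Capitals mark letters of CANNTG (an E-box, the site type of basic helix-loop-helix factors such as Mitf), TAATCC (the core bound by Otx2 and Crx) or GGGCGG (a GC box), found on either strand.
Sulf2 start A, chr2:166155286-166155535, minus strand: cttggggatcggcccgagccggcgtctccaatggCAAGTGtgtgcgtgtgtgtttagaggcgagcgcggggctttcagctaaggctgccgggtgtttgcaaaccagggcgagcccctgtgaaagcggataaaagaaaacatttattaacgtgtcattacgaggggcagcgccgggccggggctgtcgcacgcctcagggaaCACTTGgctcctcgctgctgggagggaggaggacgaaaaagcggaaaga
Sulf2 start B, chr2:166155684-166155933, minus strand: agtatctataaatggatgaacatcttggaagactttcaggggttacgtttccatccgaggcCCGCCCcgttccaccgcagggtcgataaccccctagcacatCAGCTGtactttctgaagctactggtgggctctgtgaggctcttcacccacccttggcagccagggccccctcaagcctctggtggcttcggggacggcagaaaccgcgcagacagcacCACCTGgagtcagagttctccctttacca
Gpc4, chrX:52164924-52165173, minus strand: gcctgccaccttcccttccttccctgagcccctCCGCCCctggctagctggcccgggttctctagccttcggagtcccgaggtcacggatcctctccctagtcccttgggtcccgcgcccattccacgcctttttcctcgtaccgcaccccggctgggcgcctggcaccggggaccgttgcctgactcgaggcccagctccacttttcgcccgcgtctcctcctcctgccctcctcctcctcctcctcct
Hs6st2, chrX:51680478-51680727, minus strand: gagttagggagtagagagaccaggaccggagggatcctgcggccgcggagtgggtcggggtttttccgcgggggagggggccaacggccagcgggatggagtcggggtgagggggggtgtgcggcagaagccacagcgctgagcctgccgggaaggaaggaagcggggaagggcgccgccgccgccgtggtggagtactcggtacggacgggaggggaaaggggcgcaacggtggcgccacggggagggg
Each Sulf2 stretch held 2 E-boxes, and the Gpc4 and Hs6st2 stretches held 0. Sulf2 start B and Gpc4 held 1 GC box each. E-box letters occurred before 66.2% of 32851 starts in the table, GC box letters before 32.7% and TAATCC before 6.25%. TAATCC had 0 matches before all 8 starts of the 6 members. The E-box form CACGTG, which overlaps CANNTG, had 1 match, before Ext2, and was present before 6.02% of all starts. The GC content was 60% and 57.2% before the Sulf2 starts, 68.4% before Gpc4 and 72% before this Hs6st2 start, against a median of 52.4% over all starts. Before the other listed Hs6st2 start, not shown, it was 50%, below that median. These are matches of letters only.

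The 2 sulfatases ran in different orders, and Sulf1 had the widest difference of the 10 members. It was highest in RPE, then CH, and lowest in PR. On its reported probe (chr1:12850302-12850361 of build mm9, plus strand), the log2 ratios were 0.47, 0.60 and 1.20 on the CH arrays, 1.72, 2.31 and 1.70 on the RPE arrays, and -2.78, -2.23 and -2.85 on the PR arrays. No array of one layer overlapped an array of another layer.
Sulf1 was called 23.1-fold higher in RPE than in PR, a log2 difference of 4.53 ± 0.24 (SE, 3 arrays against 3) with a limma adjusted p of 2.53e-07, and 10.4-fold higher in CH than in PR (adjusted p = 1.42e-06). A gene was called when it differed by more than 2.5-fold with a Benjamini-Hochberg adjusted p below 0.01 over all probes, the rule stated for the study. RPE exceeded CH by 2.23-fold on this probe, a log2 difference of 1.15 with a 95% interval from 0.61 to 1.70 (adjusted p = 0.00837), which is below the fold threshold. Without CH replicate 3, the array with the highest RPE marker level, the difference was 1.38 with an adjusted p of 0.00321 and passed the threshold. Without any 1 of the other CH and RPE arrays the adjusted p lay between 0.0173 and 0.0371. It was 0.023 with Feature Extraction's ratios, 0.0255 with median centring, 0.0861 in the Cy5 channel alone and 0.103 in the authors' table. On this probe it thus often missed the p threshold as well. It stayed below 0.01 with slide (0.00779) or replicate number (0.00841) as a block, without background correction (0.00905) and with array weights (0.00175). In these settings the fold threshold was still missed. The authors' table holds log2 values and gave nearly the same difference as the Cy5 channel alone (0.926 and 0.934). These 2 settings are thus not separate checks. The study lists Sulf1 as higher in RPE than in CH under the stated rule, without naming the probe. Within the slide that held 2 CH and 2 RPE arrays the difference was 0.88, and within the slide that held 1 of each it was 1.71. The part of RPE material on the CH arrays in these values was not tested.

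A further Sulf1 probe (chr1:12849507-12849566) gave the same order. Its log2 ratios were -0.35, -1.03 and -0.51 in CH, 0.74, 0.91 and 0.87 in RPE, and -3.07, -2.79 and -3.04 in PR. The 3 layers were again apart on every array. On this probe the difference of RPE from CH was 1.47 ± 0.17, or 2.77-fold (adjusted p = 0.000433), and was called, while RPE against PR gave 14.0-fold (adjusted p = 6.79e-08) and CH against PR 5.04-fold (adjusted p = 1.31e-06). Both probes thus placed RPE above CH, and whether this difference was called turned on the probe.

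**Figure D1:**
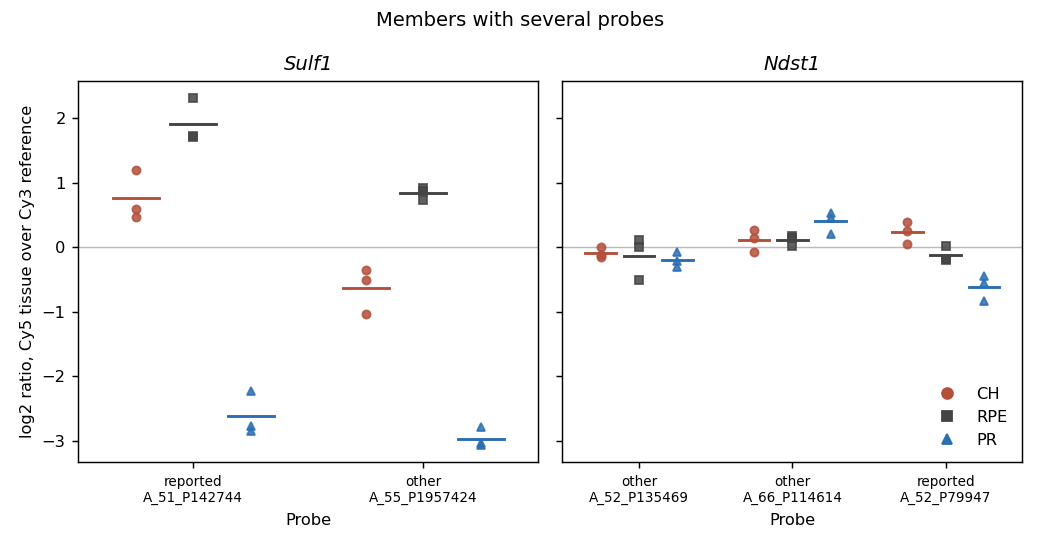
Log2 ratio of tissue (Cy5) over reference (Cy3) for each probe of Sulf1 (left) and Ndst1 (right), the 2 members with several probes. Points are arrays, bars are means of 3 arrays, and the reported probe is the brightest. Both Sulf1 probes place RPE above CH above PR, and only on the reported Ndst1 probe do the CH and PR arrays not overlap.

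Sulf2 was highest in CH and lowest in PR. Its single probe (chr2:165899667-165899726, minus strand) gave log2 ratios of 0.45, 0.58 and 0.21 in CH, -0.40, -0.40 and -0.65 in RPE, and -1.61, -0.60 and -1.74 in PR. The CH arrays were above all others, and PR replicate 2 reached into the RPE range.
Sulf2 was called 3.32-fold higher in CH than in PR, a log2 difference of 1.73 ± 0.26 (adjusted p = 0.000278). PR replicates 1 and 3 shared a slide with no other layer, and with slide as a block the difference was 1.14 (adjusted p = 0.00122), under the fold threshold. Within the slide of PR replicate 2 it was 1.18. From the Cy5 channel alone (1.64, adjusted p = 0.0187) and from the authors' table of values (1.66, adjusted p = 0.0201) it missed the p threshold. Sulf2 in RPE lay 1.86-fold below CH (adjusted p = 0.0348) and 1.78-fold above PR (adjusted p = 0.0227), and neither passed. Beside this, the mean log2 ratio of the 7 fibroblast markers ran from 1.20 to 1.58 in CH, from -1.16 to -0.75 in RPE and from -4.92 to -4.34 in PR, with all 7 well above background on every array. The marker means of smooth muscle and pericytes, of melanocytes and of immune cells also ran from CH to RPE to PR. The part of these lists in the Sulf2 values was not tested.

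The genes whose ratios over the 9 arrays ran most like those of the sulfatases were found among 19384 genes for Sulf1 and 19675 for Sulf2. A gene entered when well above background in Cy5 on all 9 arrays, or on all 3 arrays of the layer where that sulfatase was highest. That layer was RPE for Sulf1 and CH for Sulf2, so the choice itself favoured genes high there. For Sulf1 they were Etv5 (Pearson r = 0.999), Ctf1, Pitpna, Bloc1s1 and Etnk2, each with r = 0.998. For Sulf2 they were Atf7 (r = 0.992), C85627 (0.991), Tro (0.990), a gene model with no symbol (0.989) and 1110006E14Rik (0.989). The 9 points share their reference and fall into 3 layers, so that these values describe likeness of pattern and carry no test.

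Ext1, a chain polymerase, was the only member called with its highest level in PR. The log2 ratios of Ext1 (chr15:52904855-52904914, minus strand) were 0.51, 0.53 and 0.26 in CH, 0.34, 0.13 and 0.14 in RPE, and 1.71, 1.71 and 1.67 in PR. The PR arrays agreed closely and stood above all 6 others, while CH and RPE overlapped.
Ext1 was called 2.81-fold lower in RPE than in PR, a log2 difference of -1.49 ± 0.10 (adjusted p = 1.51e-06). In CH it lay 2.40-fold below PR (-1.26 ± 0.10, adjusted p = 3.85e-06), just under the fold threshold, and this difference passed in 4 other ways of processing, with -1.35 to -1.39. RPE minus CH was -0.23 with a 95% interval from -0.46 to 0.01 (adjusted p = 0.164). Beside this, the mean log2 ratio of the 10 rod markers ran from 3.44 to 3.63 in PR, from -0.74 to 0.17 in RPE and from -1.34 to -0.52 in CH, and their part in the Ext1 values was not tested.
A further probe, chosen after its values were seen, is annotated in the files as exostosin-1 but named by an Ensembl transcript only (chr15:53027695-53027754, minus strand). Its log2 ratios were 0.64, 1.53 and 0.62 in CH, -0.70, -0.32 and -1.03 in RPE, and 0.16, 0.89 and -0.19 in PR. Its order was not that of the Ext1 probe: it was called 3.05-fold lower in RPE than in CH (adjusted p = 0.00653), and was well above background on only 1 of 3 RPE arrays.

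Ext2, the partner of Ext1, varied less. On its probe (chr2:93653725-93653784, minus strand) the log2 ratios were -0.30, -0.22 and -0.59 in CH, -0.05, 0.17 and -0.05 in RPE, and 0.18, 0.23 and 0.61 in PR. The layers ran from CH to RPE to PR with no overlap between arrays. The difference between CH and PR was 1.63-fold (adjusted p = 0.00209), under the fold threshold, and RPE minus CH was 0.39 (adjusted p = 0.0857) and RPE minus PR -0.32 (adjusted p = 0.099).

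**Figure D2:**
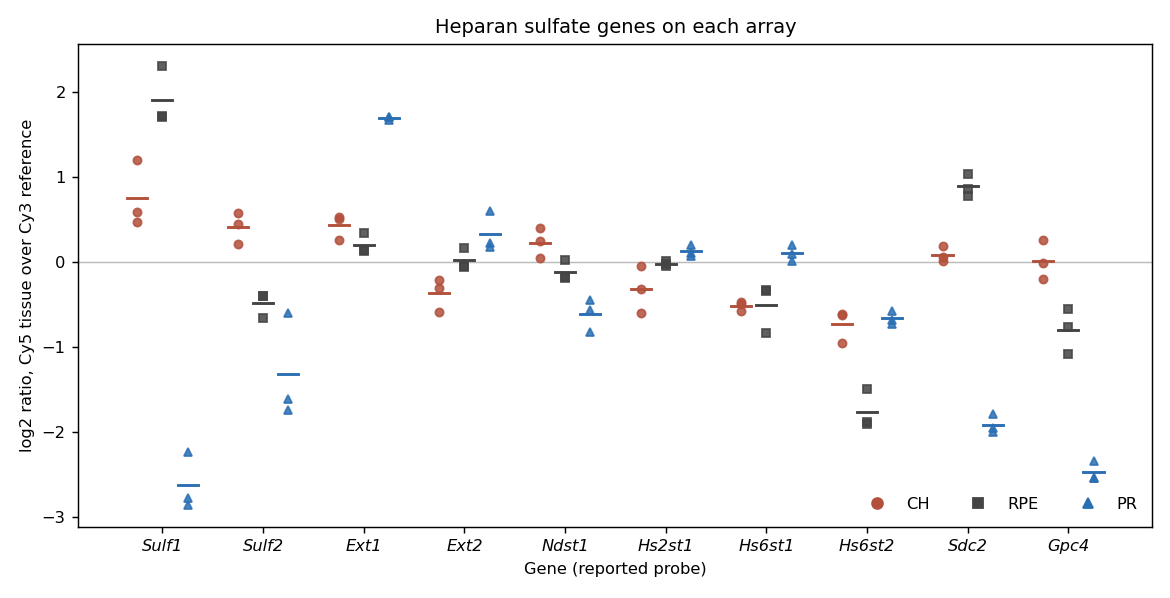
Log2 ratio of tissue (Cy5) over reference (Cy3) on each array for the reported probe of the 10 genes. Points are arrays of CH, RPE and PR, and bars are means of 3 arrays. Sulf1, Ndst1, Sdc2 and Gpc4 have their PR arrays below all others, Ext1, Ext2, Hs2st1 and Hs6st1 have them above, and Hs6st2 has its RPE arrays below both other layers.

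None of the 4 sulfotransferases was called in any comparison, and the enzymes did not run in one direction. Hs6st2, which adds 6-O-sulfate, was lowest in RPE. Its log2 ratios (chrX:48741019-48741078, minus strand) were -0.61, -0.62 and -0.95 in CH, -1.50, -1.88 and -1.90 in RPE, and -0.68, -0.58 and -0.73 in PR. The RPE arrays were below all 6 others, and CH and PR overlapped. RPE was 2.05-fold below CH (-1.03 ± 0.14, adjusted p = 0.000921) and lay below PR by a similar amount (-1.10 ± 0.14, adjusted p = 8.92e-05). Both p-values passed and both fold changes did not, and the difference from PR passed both in 4 other ways of processing, with -1.33 to -1.55. CH minus PR was -0.07 (95% interval from -0.38 to 0.24, adjusted p = 0.726). The fibroblast markers given beside Sulf2 were also lower in RPE than in CH, but unlike Hs6st2 they were lowest in PR. Their part in the Hs6st2 values was not tested.

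Hs6st1, an enzyme of the same activity, had another pattern. Its log2 ratios (chr1:36162666-36162725, plus strand) were -0.58, -0.47 and -0.50 in CH, -0.34, -0.84 and -0.32 in RPE, and 0.21, 0.02 and 0.10 in PR. PR was above both other layers on every array, by 1.52-fold over RPE (adjusted p = 0.00451) and 1.54-fold over CH (adjusted p = 0.00354). RPE and CH overlapped and differed by 0.02, with a 95% interval from -0.30 to 0.33 (adjusted p = 0.958).
Hs2st1, the only 2-O-sulfotransferase, spanned a narrow range. Its log2 ratios (chr3:144094574-144094633, minus strand) were -0.04, -0.60 and -0.32 in CH, 0.01, -0.05 and -0.03 in RPE, and 0.21, 0.07 and 0.11 in PR. The widest of its differences was that of CH from PR, at -0.45 (adjusted p = 0.0162).

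Ndst1, which starts the sulfation of the chain, was measured by 3 probes on chromosome 18. The brightest gave log2 ratios of 0.40, 0.25 and 0.04 in CH, 0.02, -0.18 and -0.19 in RPE, and -0.56, -0.83 and -0.44 in PR. On it CH was 1.79-fold above PR (0.84 ± 0.13, adjusted p = 0.000385) and RPE 1.41-fold above PR (adjusted p = 0.0108). The further probes did not repeat this. They gave CH minus PR differences of 0.11 (adjusted p = 0.59) and -0.29 (adjusted p = 0.0704). The first was well above background on 2 of 3 CH and 2 of 3 PR arrays. The second was so on all CH and PR arrays and on 2 of 3 RPE arrays. The difference of Ndst1 between layers thus rested on 1 of 3 probes.

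The core proteins Sdc2 and Gpc4 were both lowest in PR and differed in which other layer was highest. Sdc2, syndecan 2, spans the membrane, and its log2 ratios (chr15:32964204-32964263, plus strand) were 0.05, 0.02 and 0.19 in CH, 0.77, 1.04 and 0.86 in RPE, and -1.95, -1.79 and -2.00 in PR. The 3 layers did not overlap. Sdc2 was called 6.98-fold higher in RPE than in PR (2.80 ± 0.11, adjusted p = 3.01e-08) and 4.00-fold higher in CH than in PR (2.00 ± 0.11, adjusted p = 1.66e-07). RPE exceeded CH by 1.75-fold (adjusted p = 0.000882), below the fold threshold. Over the 9 arrays its ratios followed those of Sulf1 with r = 0.996, as a description over 3 layers. Of 9 endothelial markers, 8 were likewise called higher in RPE and in CH than in PR, with a mean log2 ratio from 1.00 to 1.66 in CH, from 1.19 to 1.31 in RPE and from -2.04 to -1.88 in PR. Their CH and RPE ranges overlapped, whereas those of the RPE markers given above did not, with RPE highest, then CH, then PR. The part of either list in the members' values was not tested.

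Gpc4, glypican 4, is held to the membrane by a lipid anchor. Its log2 ratios (chrX:49406560-49406619, minus strand) were 0.26, -0.01 and -0.20 in CH, -0.55, -1.08 and -0.76 in RPE, and -2.34, -2.54 and -2.54 in PR. Again the 3 layers did not overlap, with CH highest. Gpc4 was called 5.60-fold higher in CH than in PR (2.49 ± 0.16, adjusted p = 5.65e-07) and 3.19-fold higher in RPE than in PR (1.67 ± 0.16, adjusted p = 1.16e-05). RPE was 1.76-fold below CH (adjusted p = 0.00554), below the fold threshold. The fibroblast markers and the other lists named beside Sulf2 were ordered in the same way, and their part was not tested.

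**Figure D3:**
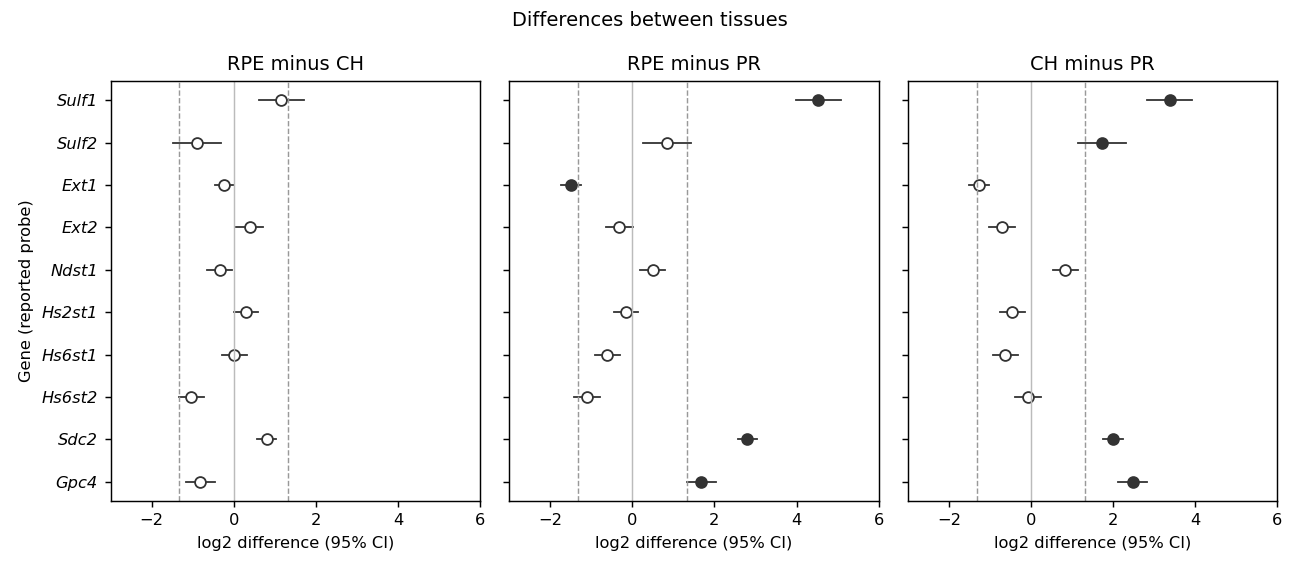
Log2 difference between layers for the reported probe of each gene, with its 95% interval from limma (3 arrays against 3). Filled points were called, open points were not, and dashed lines mark a fold change of 2.5. No point is filled for RPE minus CH, 4 are filled for RPE minus PR (Ext1 on the negative side), and 4 for CH minus PR.

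Counted over the members at their brightest probe, 0 of 10 were called between RPE and CH, where 1.92% of all 31829 genes were. When any probe of a gene could be called, the count was 1 of 10 (Sulf1), where 2.03% of genes were. In limma, 8 of 10 had an unadjusted p below 0.05, against 33.5% of all genes, and 4 of 10 an adjusted p below 0.01, against 12.3%. Those 4 were Sulf1 and Sdc2, with RPE above CH, and Hs6st2 and Gpc4, with CH above RPE. The RPE arrays lay above all CH arrays for 3 members (Sulf1, Ext2 and Sdc2), as for 19.8% of all genes, and below them for 4 (Sulf2, Ndst1, Hs6st2 and Gpc4), as for 19.1%. The median log2 difference of the members was -0.11, against 0.03 over all genes.
Between RPE and PR, 3 of 10 members were called higher in RPE (Sulf1, Sdc2 and Gpc4), where 10.9% of all genes were, and 1 of 10 lower (Ext1), where 5.19% were. In either direction this is 4 of 10, against 16.1% of all genes. The RPE arrays lay above all PR arrays for 4 members, as for 29% of genes, and below them for 5, as for 29.6%. The median was 0.17, against -0.0045 over all genes. Between CH and PR, 4 of 10 were called higher in CH (Sulf1, Sulf2, Sdc2 and Gpc4), where 12.7% of all genes were, and 0 of 10 lower, where 6.01% were. In either direction this is 4 of 10, against 18.7% of all genes. The CH arrays lay above all PR arrays for 5 members, as for 28.7% of genes, and below them for 4, as for 33.6%. In that comparison 9 of 10 members had an unadjusted p below 0.05 in limma, against 57.7% of all genes. The median was 0.39, against -0.05. The comparisons share arrays by pairs, so that their counts are not independent. The reported probes of all 10 members were well above background on every array. The shares over all genes, here and below, include genes that were not.

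The rest of the pathway was followed in a list of 49 other genes, all of them on the array. Between RPE and CH, 1 was called higher in RPE, where 0.179% of all genes were, and 2 lower, where 1.74% were. Between RPE and PR, 17 were called higher in RPE, where 10.9% of all genes were, and 0 lower, where 5.19% were, with 32 of 49 at an adjusted p below 0.01 against 40% of all genes and 38 at an unadjusted p below 0.05 in limma against 55.3%. Between CH and PR, 19 were called higher in CH, where 12.7% of all genes were, and 0 lower, where 6.01% were, with 34 of 49 at that adjusted p against 43.5% and 37 at that unadjusted p against 57.7%. The median log2 difference of the list was 0.05, 0.71 and 0.79 in these comparisons.

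Core proteins made up the longest of these lists. Of 15 other core proteins, 9 were called higher in RPE than in PR, where 10.9% of all genes were, and 9 higher in CH than in PR, where 12.7% were. Tgfbr3, betaglycan, a co-receptor for TGF-beta, had mean log2 ratios of 0.26 ± 0.14 in CH, 1.01 ± 0.11 in RPE and -4.00 ± 0.14 in PR (SD, n = 3), a fold change of 32.3 between RPE and PR (limma adjusted p = 4.11e-09). Gpc3, another glypican, had 0.87 ± 0.15, 1.04 ± 0.23 and -3.96 ± 0.10, with 32.0-fold between RPE and PR (adjusted p = 6.93e-09). Among the basement membrane proteoglycans, Hspg2 (perlecan) was 16.7-fold higher in CH than in PR (adjusted p = 8.88e-09), Agrn (agrin) 8.34-fold (adjusted p = 2e-07) and Col18a1 (collagen XVIII) 13.6-fold (adjusted p = 3.92e-08). A second Agrn probe gave a CH minus PR difference of -0.16 (adjusted p = 0.171), but it was well above background on 0 of 3 CH arrays and 1 of 3 RPE arrays and gives no measure there. A second Hspg2 probe gave 3.52-fold (adjusted p = 1.71e-05).
Gpc1, Gpc6 and Sdc4 were called higher than PR in both layers as well, by 3.37-fold, 5.17-fold and 4.19-fold in RPE. Spock1, testican 1, was the gene called higher in RPE than in CH, by 2.67-fold (1.42 ± 0.23, adjusted p = 0.00208). A further Spock1 probe was well above background on only 1 of 3 CH and 1 of 3 RPE arrays and gives no measure of that difference. The syndecans Sdc1 and Sdc3 were not called: Sdc3 lay 2.02-fold lower in RPE than in CH (adjusted p = 0.000338) and Sdc1 2.46-fold above PR in RPE (adjusted p = 0.000121).

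**Figure D4:**
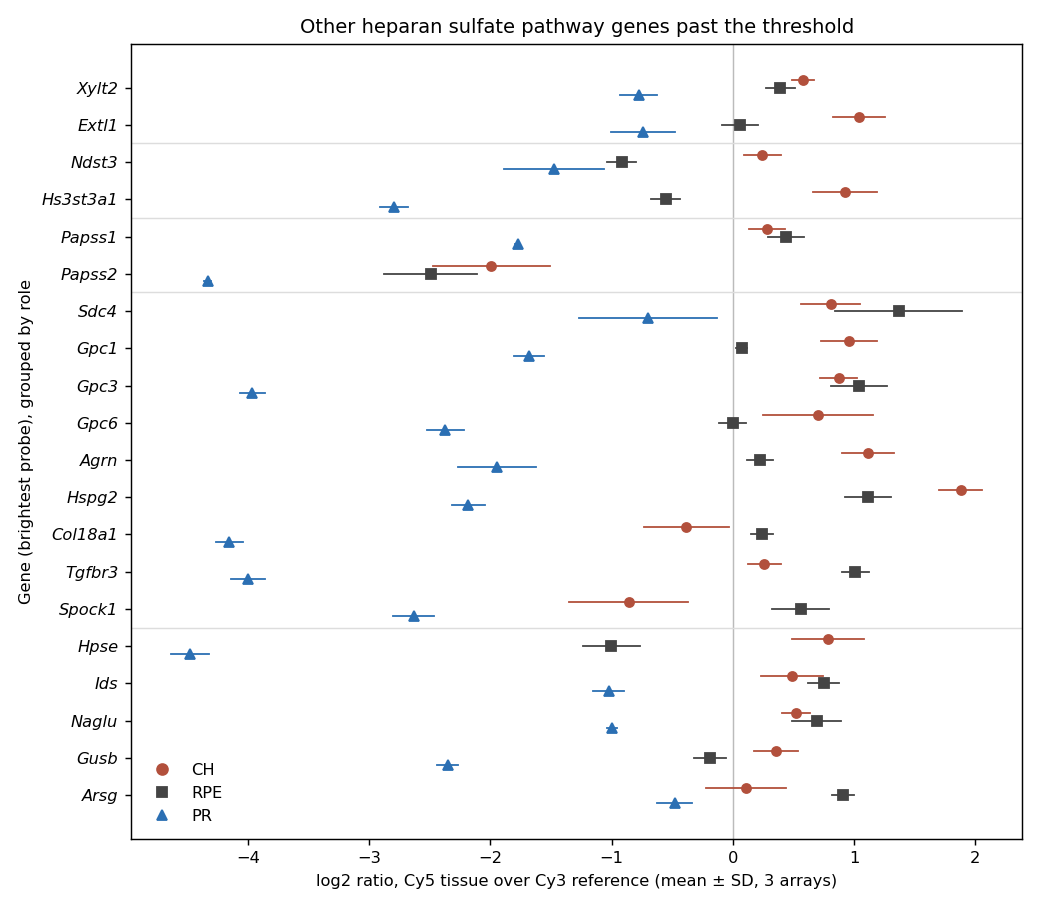
Mean log2 ratio of tissue over reference in CH, RPE and PR for the other pathway genes called in at least 1 comparison, at the brightest probe, with bars of 1 SD over 3 arrays. From the top the lines divide chain initiation, sulfotransferases, sulfate donor supply, core proteins and breakdown. The PR points lie to the left of CH and RPE for every gene shown.

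Of 11 genes, the other sulfotransferases with the epimerase among them, 1 was called higher in RPE than in PR and 2 higher in CH than in PR. Of all genes, 10.9% and 12.7% were. The counted probes of Hs6st3, Hs3st2, Ndst4 and Hs3st3b1 were not well above background on all 3 arrays of any layer. They give little measure of a difference. Hs3st3a1, which adds the rare 3-O-sulfate, had mean log2 ratios of 0.92 ± 0.26 in CH, -0.56 ± 0.12 in RPE and -2.80 ± 0.12 in PR, and was called in all 3 comparisons, with RPE 2.78-fold below CH (adjusted p = 0.000188) and CH 13.2-fold above PR (adjusted p = 1.82e-08). Ndst3 was called 3.29-fold higher in CH than in PR (adjusted p = 2.66e-05).
Of the 4 genes that supply the sulfate donor PAPS, Papss1 and Papss2, the synthases, were called higher than PR in RPE (4.64-fold and 3.57-fold) and in CH (4.17-fold and 5.05-fold). The transporters Slc35b2 and Slc35b3 differed in the same direction by 1.30-fold to 1.73-fold, under the threshold. Among the 9 genes of linker and chain initiation, 0 were called between RPE and PR, where 16.1% of all genes were. In that comparison 7 of the 9 had an adjusted p below 0.01, against 40% of all genes. Extl1 (3.44-fold) and Xylt2 (2.56-fold) were called higher in CH than in PR, where 12.7% of all genes were. A further Xylt2 probe gave a CH minus PR difference of -0.16 (adjusted p = 0.247) and an RPE minus PR difference of 0.01 (adjusted p = 0.936). The linker enzymes B4galt7 and B3galt6 lay below PR in RPE, by 1.54-fold (adjusted p = 0.000156) and 1.78-fold (adjusted p = 2.62e-05). Extl2 lay below it by 1.44-fold (adjusted p = 0.000868). B3gat3, which also acts on the linker, lay 1.64-fold above PR in RPE (adjusted p = 0.000492). Xylt2, Extl3 and Extl1 lay 2.24-fold, 1.91-fold and 1.74-fold above it (adjusted p = 1.18e-05, 7.86e-05 and 0.00185). The median of the 9 genes was 0.71 in that comparison.

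Of 10 genes that break heparan sulfate down, 5 were called higher in RPE than in PR (Hpse, Ids, Naglu, Gusb and Arsg), where 10.9% of all genes were, and 4 higher in CH than in PR (the same without Arsg), where 12.7% were. Hpse, heparanase, the enzyme that cuts the chain, had mean log2 ratios of 0.79 ± 0.30 in CH and -4.47 ± 0.16 in PR (SD, n = 3), with RPE in between. It was called 38.3-fold higher in CH than in PR (adjusted p = 8.65e-09) and 3.45-fold lower in RPE than in CH (-1.79 ± 0.17, adjusted p = 0.000201). A dimmer Hpse probe gave RPE minus CH as -1.10 (adjusted p = 0.00129), in the same direction and under the fold threshold. For Idua, an iduronidase of lysosomes, the probes disagreed: the brightest gave RPE minus PR as 0.07 (adjusted p = 0.805) and the other 3.60. The Sgsh probes differed in sign, with -0.85 (adjusted p = 0.000237) on the brightest and 1.03 (adjusted p = 1.25e-05) on the other. Both Sgsh probes were well above background on every array.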

How the data were processed

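Cy5 tissue RNA and a Cy3 common reference, the same dye orientation throughout, were hybridised on 9 Agilent mouse arrays (3 each of CH, RPE and PR). The intensity files deposited by the authors came from Agilent Feature Extraction 9.5.3.1, and the authors also deposited a table of log2 values, used here only as an alternative, together with Feature Extraction's log10 ratios. The authors used limma in R 2.14.0, and background correction and normalization are not given in the sources used here. Low input amplification can add noise to dim probes.

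Here, intensities of 43020 spots an array were corrected with normexp (offset 50) and loess in limma 3.58.1 (R 4.3.3). Spots marked as outliers (228 to 586 an array) were dropped and repeated spots averaged. A model of layer means was fitted to log2 ratios of all 39429 probes, with Benjamini-Hochberg adjustment over all of them, and tested on simulated data. A gene was counted at its brightest probe. Other pathway genes were named when called in at least 1 comparison, or as examples from their list. Members and lists were chosen with earlier results of these data known. Probe positions are mm9, read from the files, and were not annotated to exons here. The arrays lay on 3 slides, with PR replicates 1 and 3 alone on slide 1. Replicates came from separate eyes, and whether from separate animals is not stated, so p-values measure the spread between these samples. Same-numbered arrays did not all deviate together (r from -0.08 to 0.29), and the numbers were taken not to pair the samples. Alternatives covered background correction, normalization, channels, blocks, weights, filters, thresholds and leaving out each array.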

Additional observations from a re-analysis of the deposited data

How the results depend on the processing

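The counts of members called at their brightest probe depended on the fold threshold. Between RPE and CH the count of 0 became 1 when any probe of a gene could be called, 2 at a fold threshold of 2 and 4 with no fold threshold. With no fold threshold it went from 4 to 6 between RPE and PR and from 4 to 8 between CH and PR. For the other pathway genes, the count between RPE and CH went from 3 to 5 at a fold threshold of 2, and with no fold threshold the counts were 15, 32 and 34 of 49 in place of 3, 17 and 19. Leaving out each array in turn gave 0 to 1 members between RPE and CH (1 without CH replicate 3), 4 to 4 between RPE and PR and 4 to 4 between CH and PR, and 2 to 3, 17 to 18 and 17 to 21 other pathway genes.

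With the replicate number as a block, the same counts were found as without it: 0, 4 and 4 of 10 members and 3, 17 and 19 of 49 other genes. Of the 9 arrays, 5 correlated best with an array of their own number, as a hint from the data and not from the design. The arrays numbered 2 were also the only ones on slide 3, so that number and slide cannot be told apart for them. With slide as a block, 0, 4 and 3 members and 3, 17 and 20 other genes were called. The adjusted p of Ext2 between CH and PR was then 0.131, that of Hs6st1 0.0338 between RPE and PR and 0.0282 between CH and PR, and that of Sulf2 between RPE and CH 0.00148. No alternative moved the median log2 difference of all probes outside -0.12 to 0.08.

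Of single differences of the members, 2 changed sign, and neither had passed a threshold. Hs6st1 between RPE and CH went from 0.02 to -0.16 with median centring, -0.0062 in the Cy5 channel alone, -0.0383 in the authors' table and -0.0722 to 0.184 when each array was left out. Within slides it was 0.21 on slide 2 and -0.37 on slide 3. Hs6st2 between CH and PR went from -0.07 to 0.0118 with array weights and 0.0447 without CH replicate 3 (-0.124 to 0.0447 when each array was left out). The calls that depended on a setting were those of Sulf1, Sulf2, Ext1 and Hs6st2 given with their values above, and the cause was not tested. Disagreement between its probes limits Ndst1, and 3 arrays a layer limit every interval.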
